A study of Mus musculus with 6 samples.

Results

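Integrin chains and laminin chains are the 2 gene families described here, in mouse melanocytes with an inducible BRAF kinase. Members were taken by gene symbol alone: every Itga, Itgb, Lama, Lamb or Lamc gene with a number, and the lettered alpha chains Itgae, Itgal, Itgam, Itgav and Itgax. Of the 18193 genes with a probe set analysed here, 35 are members: 16 integrin alpha chains, 9 integrin beta chains and 10 laminin chains. Itgb2l, named as a relative of Itgb2, meets the symbol rule and is counted among the 35.

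The cells were melan-a, an immortal melanocyte line grown from embryonic skin of C57BL/6 mice. In every group the cells held delta-BRAF-ER, a BRAF kinase that tamoxifen switches on. Of the 6 arrays, 1 is of cells with BRAF left off (BRAF-off) and 1 of cells with it switched on (BRAF-on). The other 4 are of BRAF-on cells that also received ZEB2, SNAIL2, TWIST1 or ZEB1, transcription factors of embryonic development, and each is 1 group. The study asked how each of these factors bears on genes that answer to BRAF. The tamoxifen dose and time, and whether a line was 1 clone or a pool, are not given in the sources used here. No array has the drug in cells lacking delta-BRAF-ER, so an effect of the drug cannot be told apart from that of BRAF. In bulk RNA, fewer cells of a type and less RNA per cell cannot be told apart either.

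Integrins are receptors in the cell membrane that join the cell to the matrix around it. Each is a pair of an alpha and a beta chain, and the pairing sets what it binds. Itgb1 pairs with many alpha chains, while Itgb2 and Itgb7 pair with alpha chains known from leukocytes. Laminins are large cross-shaped proteins of the basement membrane, each made of an alpha, a beta and a gamma chain. In skin, melanocytes rest on the basement membrane beneath the epidermis and hold to its laminin through integrins.

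With 1 array a group there is no estimate of spread. No difference was tested, no p-value is given, and each fold describes 2 arrays. Values are linear signals on which each array has the same trimmed mean (500), and 63.7, the median of all values, was taken as a floor under which signals were given no order. Genes under the floor on both arrays were left out of that comparison, and differences of at least 2-fold were counted. Where 1 of the 2 signals lay under the floor, the fold is a lower bound, written "at least". Between 20 (BRAF-off) and 24 (array labelled ZEB1) members reached the floor, of 10611 to 11269 genes. Signals of different probe sets are not set against each other.

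The labels could not be checked through the added factors. The log2 ratio of the factor's own probe set over BRAF-on was 0.49 for Zeb2, -0.41 for Snai2, -0.28 for Twist1 and -0.30 for Zeb1, each on the array labelled with that factor, and no source used here says whether these probe sets can read the introduced sequences. Arrays are therefore named by their labels. Of 8 melanocyte markers all were at or above the floor on 5 arrays, but 6 were under it on the array labelled TWIST1 (Dct, Tyrp1, Tyr, Pmel, Mlana and Kit). Their summed signal was 88578 in BRAF-off, 65208 in BRAF-on, 112366 with ZEB2, 135547 with SNAIL2, 2352 with TWIST1 and 25789 with ZEB1, and its part in the results was not tested. The spiked-in poly-A controls were 2.44-fold higher on the array labelled SNAIL2 than on BRAF-on, on all 24 of their probe sets, and between 0.879 and 1.39 times BRAF-on on the others. The ratio of the 3' to the 5' probe set of actin ran from 1.36 to 1.54.

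Of the 35 members, 18 were at or above the floor on all 6 arrays, 8 on some and 9 on none. The first 18 were Itga1, Itga2b, Itga3, Itga6, Itga7, Itga8, Itga10, Itgav, Itgb1, Itgb3, Itgb5, Itgb8, Lama4, Lama5, Lamb1, Lamb2, Lamb3 and Lamc1. Under the floor on every array were Itga2, Itgal, Itgam, Itgax, Itgb2l, Itgb4, Itgb6, Lama1 and Lama2. The lettered chains among these belong to leukocyte receptors, Itgb4 is the partner of Itga6 in the hemidesmosomes of epithelia, and Itgb6 is an epithelial partner of Itgav. Signals under the floor do not show that a gene is silent.

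All 23 members that entered lay within 2-fold between BRAF-on and BRAF-off. None was at least 2-fold higher, against 1.04% of 11200 genes, and none was that much lower, against 0.384%. The median log2 ratio was 0.07 (all genes 0.00), and 20 members (87.0%, against 93.6% of all genes) lay within 1.5-fold. Itga2b was at a log2 ratio of 0.75 and Lamb3 at 0.71, the far ends on the higher side, and Itga1 at -0.64 on the lower.

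With an added factor the counts were larger on 3 arrays. On the array labelled ZEB2, 1 of 22 members, Itga1, exceeded BRAF-on by 2-fold or more (1.76% of 11322 genes were) and none was that much lower (0.583%). On that labelled SNAIL2, 2 of 24 were higher (Itga1 and Itga9; 5.61% of 11416 genes) and 2 were lower (Itgb8 and Lamb3; 6.42%). The array labelled TWIST1 had none of 24 in either direction (2.03% and 2.02% of 11334 genes). That labelled ZEB1 had Itga10, Itgb2, Itgb3 and Itgb7 higher, 4 of 25 (16.0%, against 4.49% of 11614 genes) and none lower (3.93%). The medians of the members' log2 ratios were -0.03, 0.11, 0.04 and 0.15, and those of all genes -0.01, 0.06, 0.00 and 0.07, in the same order. These 4 comparisons share the BRAF-on array.

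**Figure D1:**
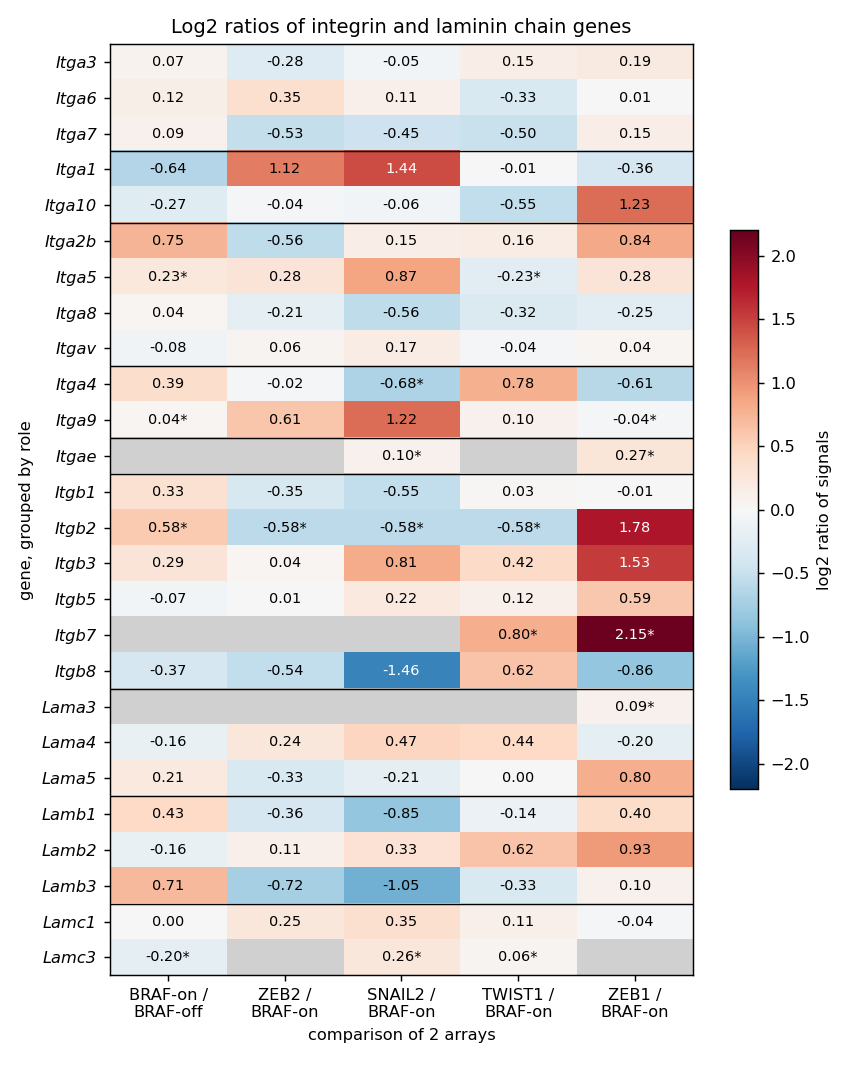
Log2 ratio of 26 integrin and laminin chain genes (rows, grouped by role) in 5 comparisons of 2 arrays each (columns); red is higher and blue lower on the first array named, an asterisk marks a ratio with 1 array under the floor, and grey marks a gene under the floor on both. The strongest colours are Itga1 and Itgb8 in the SNAIL2 column and Itgb2, Itgb3 and Itgb7 in the ZEB1 column.

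**Figure D2:**
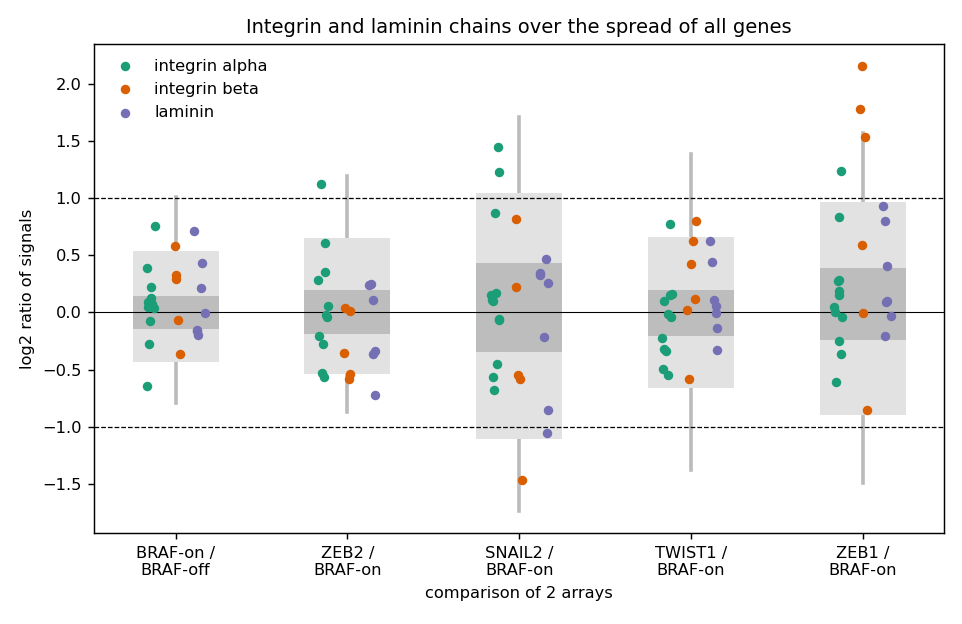
Log2 ratio of each member (points) in each comparison, over all genes entered (dark box from the 25th to the 75th percentile, light box from the 5th to the 95th, line from the 1st to the 99th); dashed lines mark 2-fold. Most members lie within the light box, and Itgb7 and Itgb2 lie above the 99th percentile in the ZEB1 comparison.

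The collagen-binding alpha chain Itga1, a partner of Itgb1, differed by at least 2-fold on 2 arrays. Its signal was 529.6 in BRAF-off, 340.2 in BRAF-on, 742 with ZEB2, 925 with SNAIL2, 337 with TWIST1 and 265 with ZEB1. The arrays labelled ZEB2 and SNAIL2 thus stood highest and that labelled ZEB1 lowest, with BRAF-off between them. Against BRAF-on the array labelled ZEB2 was 2.18-fold higher and that labelled SNAIL2 2.72-fold. Against BRAF-off they were 1.40-fold and 1.75-fold higher, so neither reached 2-fold against BRAF-off. A second Itga1 probe set, under the floor in BRAF-on, was at least 1.46-fold higher with ZEB2 (93.0) but at the floor with SNAIL2 (63.9). With the median of both probe sets the log2 ratio was 0.72 with SNAIL2 and 0.83 with ZEB2, both under 2-fold.

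Itga9, whose product pairs with Itgb1 and binds tenascin C among other ligands, was also highest with SNAIL2 and next with ZEB2, at low signal. It was under the floor in BRAF-off, at 65.7 in BRAF-on, 100.2 with ZEB2, 153 with SNAIL2 and 70.5 with TWIST1, and under the floor with ZEB1. The array labelled SNAIL2 was 2.34-fold higher than BRAF-on, and at least 2.35-fold on a second probe set. With BRAF-on this close to the floor the ratio rests on a dim signal. A floor at the 60th percentile of all values lay above BRAF-on, and there the log2 ratio was at least 0.21.

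Itgb8 was lower on the array labelled SNAIL2. Its product pairs with Itgav and is known for releasing TGF-beta from its latent complex. The signal was 609 in BRAF-off, 472 in BRAF-on, 325 with ZEB2, 171 with SNAIL2, 727 with TWIST1 and 261 with ZEB1. The array labelled SNAIL2 was 2.75-fold lower than BRAF-on and 3.55-fold lower than BRAF-off, and that labelled TWIST1 stood highest of all 6. With ZEB1 the gene was 1.81-fold lower than BRAF-on and 2.33-fold lower than BRAF-off. A single probe set represents Itgb8.

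SNAIL2, ZEB1 and ZEB2 are known to bind DNA at the E-box letters CAGGTG, read as CACCTG on the other strand. The 250 bases before the start of Itga1, Itga9 and Itgb8 are shown because these 3 members differed most on the array labelled SNAIL2 and have an entry in the RefSeq promoter table (build GRCm38.p6). Each is written 5′ to 3′ on the gene's strand and ends at the base before the start, with CAGGTG or CACCTG in capitals. Itga9 holds 2 such matches, 87 and 55 bases before the start, Itgb8 holds 1, at 62 bases, and Itga1 holds none.
Itga1, chr13:115101965-115102214, minus strand: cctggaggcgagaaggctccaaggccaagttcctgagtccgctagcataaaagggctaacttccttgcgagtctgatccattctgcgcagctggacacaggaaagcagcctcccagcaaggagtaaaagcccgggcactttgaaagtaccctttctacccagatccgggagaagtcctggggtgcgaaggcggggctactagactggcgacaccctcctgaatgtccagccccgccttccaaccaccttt
Itga9, chr9:118711442-118711691, plus strand: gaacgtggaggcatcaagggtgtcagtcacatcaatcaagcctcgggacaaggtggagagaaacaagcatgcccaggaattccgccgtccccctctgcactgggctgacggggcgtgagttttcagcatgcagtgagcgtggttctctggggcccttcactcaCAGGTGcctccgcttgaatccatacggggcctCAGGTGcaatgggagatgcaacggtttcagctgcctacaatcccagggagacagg
Itgb8, chr12:119238277-119238526, minus strand: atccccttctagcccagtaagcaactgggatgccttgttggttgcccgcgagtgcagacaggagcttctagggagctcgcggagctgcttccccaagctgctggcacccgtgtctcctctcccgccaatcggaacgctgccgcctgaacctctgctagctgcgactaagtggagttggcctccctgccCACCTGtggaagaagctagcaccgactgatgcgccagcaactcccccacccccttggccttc

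The letters were thus found both in a member that was higher (Itga9) and in one that was lower (Itgb8) on the array labelled SNAIL2. Of the 23 members with a promoter entry, 7 held a match in any of their windows (30.4%), against 19.4% of all 27025 genes in the table. The other members with a match were Itga3, Itgb5, Itgb6, Lama5 and Lamb3. A match is a description of letters and no evidence of binding in these cells.

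Beta chains known from leukocytes and platelets were higher on the array labelled ZEB1. Itgb3, the partner of Itgav in a receptor for vitronectin and of Itga2b in platelets, was at 211 in BRAF-off, 258 in BRAF-on, 265 with ZEB2, 453 with SNAIL2, 344 with TWIST1 and 745 with ZEB1. The array labelled ZEB1 was 2.89-fold above BRAF-on and 3.53-fold above BRAF-off, higher than every other array. SNAIL2 came next, 1.76-fold above BRAF-on and 2.15-fold above BRAF-off.

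Itgb2, the beta chain of leukocyte integrins, was at 95.5 in BRAF-on and 327 with ZEB1, and under the floor on the other 4 arrays. The array labelled ZEB1 was 3.42-fold above BRAF-on and at least 5.13-fold above BRAF-off. Itgb7, the partner of Itga4 and Itgae in lymphocytes, was at 111 with TWIST1 and 283 with ZEB1, and under the floor elsewhere. That made it at least 4.44-fold higher with ZEB1 than in BRAF-on, and at least 1.74-fold higher with TWIST1. The bound rests on the floor: at the 60th percentile its log2 value with ZEB1 was 1.09 in place of 2.15. Both genes have 1 probe set.

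**Figure D3:**
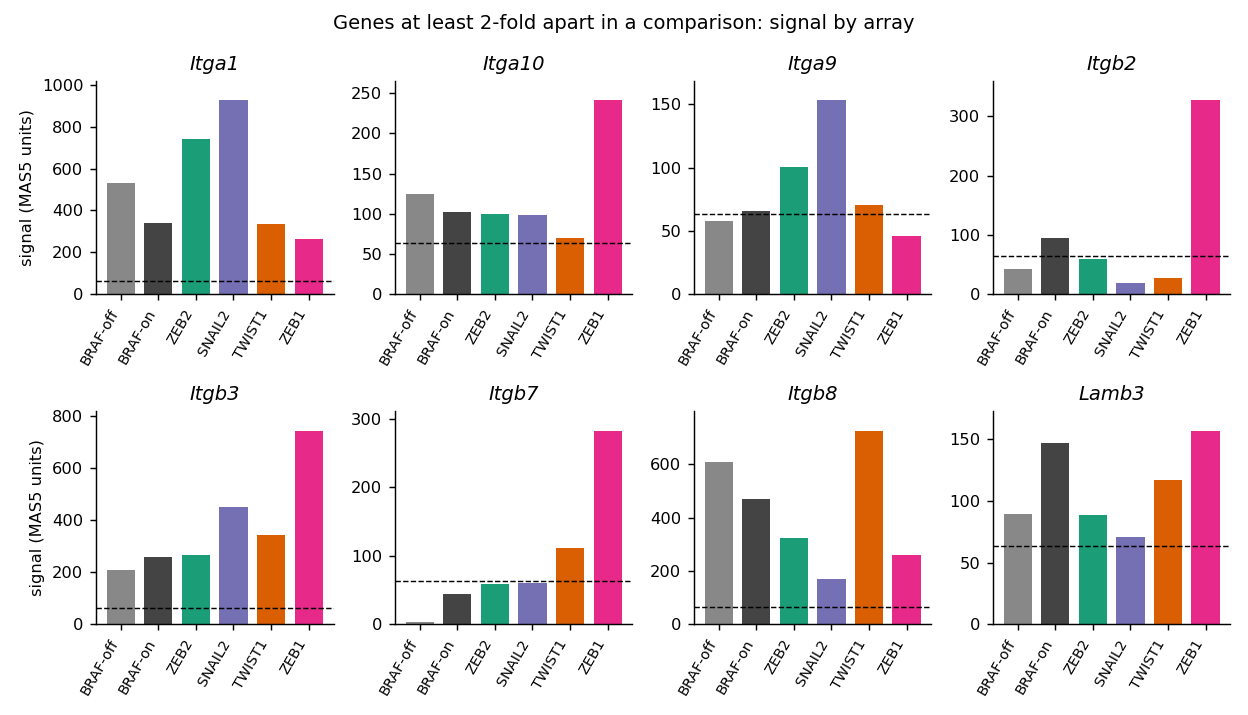
Signal (MAS5 units, linear axis from 0, scale set for each gene) of the 8 members at least 2-fold apart in a comparison, 1 bar per array; the dashed line is the floor of 63.7. Itga1 and Itga9 are tallest with SNAIL2, Itgb8 is shortest there, and Itga10, Itgb2, Itgb3 and Itgb7 are tallest with ZEB1.

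The alpha chains that pair with Itgb2 were not measured above the floor with it. Itgal, Itgam and Itgax were under the floor on every array. Of the partners of Itgb7, Itgae reached the floor with SNAIL2 (68.3) and ZEB1 (76.9), and Itga4 was 1.52-fold lower with ZEB1 than in BRAF-on. Of 7 measured leukocyte markers, Ptprc, Cd14, Adgre1 and Cd3e were under the floor on all 6 arrays. Cd68 was at 128 in BRAF-on and 466 with ZEB1, Csf1r at 97.8 and 130.5, and Lyz2 at 313 and 527. Cd68 was also 2.02-fold above BRAF-on with SNAIL2 (258). Lyz2 was at 420.5 in BRAF-off, 474 with TWIST1 and 247 with SNAIL2. The summed signal of the 7 was 1176 with ZEB1 and between 609 and 738 on the other arrays. Whether other cells have a part in these values was not tested beyond these markers.

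Itga10, a collagen-binding chain known from cartilage, was also highest with ZEB1. Its signal was 124 in BRAF-off, 102 in BRAF-on, 99.8 with ZEB2, 98.0 with SNAIL2, 70.1 with TWIST1 and 241 with ZEB1. The last was 2.35-fold above BRAF-on and 1.95-fold above BRAF-off, from 1 probe set of low signal. With the floor at the 60th percentile BRAF-on lay under it. The log2 ratio over BRAF-on was then at least 0.86, a bound that does not reach 2-fold. Itga2b, the platelet alpha chain, was at 125, 210.0, 142, 233, 234 and 375 in the same order of arrays. With ZEB1 it was 1.79-fold above BRAF-on and 3.01-fold above BRAF-off, so the reference array decided whether it passed 2-fold.

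Itgav, an alpha chain which binds ligands holding the tripeptide RGD, was at 12076 in BRAF-off, 11447 in BRAF-on, 11931 with ZEB2, 12858 with SNAIL2, 11114 with TWIST1 and 11799 with ZEB1. Its highest array was 1.16-fold above its lowest, the narrowest range among the 18 members at or above the floor on all 6 arrays. Itgb5, a partner of Itgav, lay between 4127 and 4813 on 5 arrays and at 6218 with ZEB1. All 4 Itgb5 probe sets had this direction against BRAF-on, from 1.48-fold to 1.84-fold.

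Itgb1, the common beta chain, was at 4637 in BRAF-off, 5815 in BRAF-on, 4546 with ZEB2, 3979 with SNAIL2, 5915 with TWIST1 and 5794 with ZEB1. BRAF-off and the arrays labelled ZEB2 and SNAIL2 were thus the 3 low ones, though SNAIL2 was only 1.46-fold under BRAF-on. A second bright Itgb1 probe set had the same direction with ZEB2 (1.19-fold lower) and SNAIL2 (1.23-fold lower), and a dimmer one the opposite (1.14-fold and 1.04-fold higher).

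Itga5, the fibronectin-binding partner of Itgb1, was dim. It was under the floor in BRAF-off and with TWIST1, at 74.5 in BRAF-on, and at 90.5 with both ZEB2 and ZEB1. With SNAIL2 it was at 136, 1.83-fold above BRAF-on and at least 2.14-fold above BRAF-off. The ratio over BRAF-on was 0.87 on the log2 scale. With the floor raised to the 60th percentile, above the BRAF-on signal, that ratio was at least 0.04. On another probe set, under the floor in BRAF-on, it was at least 0.35. Itga8, also RGD-binding, was lowest with SNAIL2 (828) and highest in BRAF-on (1222). Itga4, which binds fibronectin and VCAM1, was highest with TWIST1 at 175, against 102 in BRAF-on and 77.9 in BRAF-off, and under the floor with SNAIL2. With TWIST1 it was 1.71-fold above BRAF-on and 2.25-fold above BRAF-off.

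Laminin-binding alpha chains stayed within 1.5-fold of BRAF-on on all arrays. Itga6 was at 3567 in BRAF-off, 3887 in BRAF-on, 4959 with ZEB2, 4196 with SNAIL2, 3083 with TWIST1 and 3902 with ZEB1. A second Itga6 probe set had the same direction on the 4 arrays with an added factor. Itga7 was at 863 in BRAF-on, and 599, 631 and 612 with ZEB2, SNAIL2 and TWIST1, which lay 1.44-fold, 1.37-fold and 1.41-fold lower.

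Itga3 depended on the probe set. The one used, with the highest mean signal, was between 1376 (ZEB2) and 1903 (ZEB1), within 1.21-fold of BRAF-on everywhere. A second was at 236 in BRAF-off, 96.9 in BRAF-on, 338 with ZEB2, 237 with SNAIL2, 302 with TWIST1 and 292 with ZEB1. On that probe set BRAF-on was the low array, and all 4 arrays with an added factor were 2.45-fold to 3.48-fold higher. The remaining one went the other way with ZEB2 (74.7) and SNAIL2 (75.5), 1.63-fold and 1.62-fold below BRAF-on (122). Which of the 3 reports the Itga3 transcript better was not tested.

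**Figure D4:**
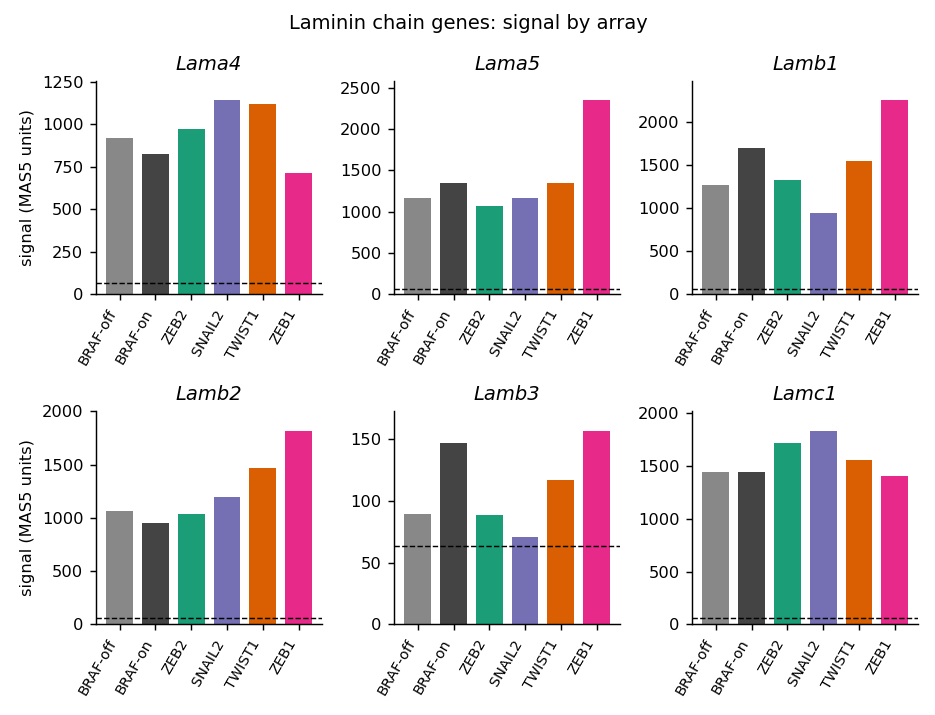
Signal (MAS5 units, linear axis from 0, scale set for each gene) of the 6 laminin chain genes measured on all 6 arrays, 1 bar per array; the dashed line is the floor of 63.7. Lama5, Lamb1 and Lamb2 are tallest with ZEB1, Lama4 is shortest there, and Lamb1 and Lamb3 are shortest with SNAIL2.

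Lama4, Lama5, Lamb1, Lamb2, Lamb3 and Lamc1 were the laminin chains at or above the floor on all arrays. Lama5, an alpha chain of many adult basement membranes, was at 1163 in BRAF-off, 1349.5 in BRAF-on, 1071 with ZEB2, 1165 with SNAIL2, 1348 with TWIST1 and 2347 with ZEB1. The array labelled ZEB1 stood above the other 5, 1.74-fold over BRAF-on and 2.02-fold over BRAF-off. A second Lama5 probe set was 1.84-fold above BRAF-on there.

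Lama4, an alpha chain known from vessel walls and nerves, had ZEB1 as its lowest array (715). It was at 919.7 in BRAF-off, 823 in BRAF-on, 974 with ZEB2, 1140.4 with SNAIL2 and 1119 with TWIST1. No array differed from BRAF-on by more than 1.39-fold.

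Lamb2, a beta chain that can take the place of Lamb1 in the trimer, was 1.90-fold above BRAF-on with ZEB1 and 1.54-fold with TWIST1. Its signals were 1066 in BRAF-off, 956 in BRAF-on, 1034 with ZEB2, 1198 with SNAIL2, 1470.5 with TWIST1 and 1819.7 with ZEB1. Those 2 arrays were above the other 4, and neither difference reached 2-fold.

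Lamb1, a widely expressed beta chain, was at 1261 in BRAF-off, 1699.7 in BRAF-on, 1323 with ZEB2, 942 with SNAIL2, 1546 with TWIST1 and 2247 with ZEB1. With SNAIL2 it was 1.80-fold below BRAF-on and 1.34-fold below BRAF-off. All 3 Lamb1 probe sets that reached the floor were lower with ZEB2 and SNAIL2 than in BRAF-on, the dimmest by 2.06-fold and 2.15-fold. Between BRAF-on (161) and BRAF-off (under the floor) the dimmest one differed by at least 2.52-fold, against 1.35-fold higher on the one used.

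Lamb3, the beta chain of the laminin that anchors epidermis to dermis, was near the floor. It was at 89.7 in BRAF-off, 147 in BRAF-on, 88.7 with ZEB2, 70.7 with SNAIL2, 117 with TWIST1 and 157 with ZEB1. The array labelled SNAIL2 was 2.07-fold below BRAF-on and 1.27-fold below BRAF-off, so the difference of 2-fold held against BRAF-on alone. With the floor at the 60th percentile, above the SNAIL2 signal, the log2 ratio over BRAF-on was -0.14 or lower. Lama3, the alpha chain of that laminin, reached the floor with ZEB1 alone, at 67.9.

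Lamc1, the gamma chain of most laminins, was at 1443 in BRAF-on and ran from 1409 with ZEB1 to 1834 with SNAIL2. A dim second probe set of Lamc1 was 1.71-fold above BRAF-on with TWIST1 and 1.59-fold with ZEB1, against 1.08-fold higher and 1.02-fold lower on the one used. Lamc3 was near or under the floor on all arrays, at most 76.2 on the probe set used and 86.0 on the other, both with SNAIL2.

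Genes that work beside these chains were counted from 4 lists. The first holds integrin activators and proteins of the adhesion plaque, where integrins are linked to actin. Of 22 measured, 2 were at least 2-fold higher with ZEB1 (4.49% of all genes were), 1 with SNAIL2 (5.61%) and 1 with TWIST1 (2.03%), and none was that much lower in any comparison. Fermt3, the kindlin of blood cells that activates their integrins, was under the floor in BRAF-off, at 107 in BRAF-on, 71.2 with ZEB2, 119 with TWIST1 and 532 with ZEB1, and under it with SNAIL2. With ZEB1 the log2 ratio over BRAF-on was 2.31, on the array where Itgb2 and Itgb7 were also highest. Tns1, a tensin, was at 555 in BRAF-on and 1138 with ZEB1. Parvb, a parvin, was at 1711 and at 3626 with SNAIL2, and Cav1, the caveolae protein, at 141 and at 390.1 with TWIST1.

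Basement membrane partners of laminin had no gene 2-fold apart in any comparison, of 11 to 13 entered, where between 0.384% and 6.42% of all genes were in either direction. Their median log2 ratio was -0.12 with ZEB2 (all genes -0.01), where all 11 lay below 0, and 0.28 with ZEB1 (all genes 0.07), where 8 of 11 lay above. These are the collagen IV chains, nidogens, perlecan and other proteins that build the sheet with laminin.

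Other integrin ligands had Npnt and Tnc past 2-fold with BRAF activation, in opposite directions. Npnt (nephronectin), a ligand of Itga8, was at 711 in BRAF-off, 309 in BRAF-on, 828 with ZEB2, 660.2 with SNAIL2, 115 with TWIST1 and 559.7 with ZEB1. BRAF-on and the array labelled TWIST1 were the low ones, with log2 ratios over BRAF-on of 1.42 for ZEB2, 1.09 for SNAIL2 and -1.43 for TWIST1. Tnc (tenascin C), a ligand of Itga9, was at 576 in BRAF-off and at 1154 in BRAF-on, with ZEB1 highest at 2011. Ccn1 and Ccn2, matrix proteins that bind integrins, were lower with ZEB1, at 5496 against 15011 and 1078 against 3534. Of the 12 or 13 ligands that entered, these were the only ones past 2-fold. BRAF activation had 1 of 12 higher (1.04% of all genes were) and 1 of 12 lower (0.384%). ZEB2 had 1 of 12 higher (1.76%), SNAIL2 1 of 12 higher (5.61%) and TWIST1 1 of 12 lower (2.02%). With ZEB1, 2 of 13 were lower (3.93%).

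Membrane partners and other laminin receptors had 2 of 15 genes at least 2-fold higher with ZEB1 (4.49% of all genes were) and none 2-fold apart in the other comparisons, where between 0.384% and 6.42% of all genes were in either direction. Cd82, a tetraspanin that associates with integrins, was at 601 in BRAF-on and 1449.5 with ZEB1, and Sdc3, a syndecan, at 565 and 1145.

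Markers of other cell types were read beside these results. Fibroblast markers had a summed signal of 16533 with TWIST1, against 6791 in BRAF-on and at most 8809 elsewhere, with Lum under the floor on all arrays. With TWIST1, 3 of 7 fibroblast markers that entered were at least 2-fold above BRAF-on (2.03% of all genes were). These were Fap by 7.22-fold, Dcn by 3.78-fold and Col3a1 by 2.95-fold. With ZEB1, 2 of 6 that entered were (4.49% of all genes), Fap by 3.58-fold and Pdgfra by at least 2.14-fold. No fibroblast marker was 2-fold lower on either array. With SNAIL2, 1 of 5 that entered was (6.42% of all genes), Dcn by 4.08-fold, and 0 were 2-fold higher (5.61%). Of the 2 endothelial markers that entered with ZEB1, Cdh5 was 2.14-fold above BRAF-on and Kdr 1.23-fold below it. The array labelled TWIST1 had no member 2-fold from BRAF-on. Of 7 keratinocyte markers at most 2, and of 6 endothelial ones at most 2, reached the floor on any array, and Krt14, Trp63, Dsp, Cdh1, Pecam1 and Tek did on none. Their part in the values of the integrin and laminin chains was not tested.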

How the data were processed

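Per the submitters' processing notes the authors made the deposited signal intensity values with MAS5 in Affymetrix Expression Console 1.1, and per the labels' protocols total RNA went through 3' IVT amplification. The 6 arrays came scaled: the mean without the highest and lowest 2% was 500 on each. No detection calls were used.

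Beside 64 controls there were 45037 probe sets. The platform annotation gives 1 symbol for 34945, which were used, several for 932 and none for 9160. Symbols were updated through the Entrez number in a RefSeq table of GRCm38.p6 (34741 found). Each gene was represented by 1 probe set, that of highest mean log2 signal over the arrays (9010 of 18193 genes had several, among them 21 members). Log2 ratios of 2 arrays were taken after raising signals under 63.7 to it, and counted by size; with 1 array a group no test could be run, and the number of arrays limits the precision.

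Members and gene lists were chosen with earlier results of these data known. Every member could be named; of the 4 neighbour lists, genes at least 2-fold apart, at most 4 per list and comparison, were to be named. E-box letters were searched in the 250 bases before each start in RefSeq promoters, where 23 members had an entry. The counting was tested on simulated data. The changes put in were well above 2-fold and in bright genes only, so differences near 2-fold or in dim genes were not covered. Python 3.11.15, numpy 2.4.6, pandas 2.3.3, scipy 1.17.1 and matplotlib 3.10.9 were used.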

Additional observations from a re-analysis of the deposited data

How the results depend on the processing

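Of 78 counts of members at least 2-fold apart that were recomputed with another choice, 56 stayed within 1.5 times and 22 did not. A count of 0 that stayed 0 is among the 56. Size alone was compared, not which members were counted. The 56 of 78 therefore do not show how stable the counted members are. With no floor, where dim signals enter, BRAF-on against BRAF-off had 3 higher and 2 lower of 35 members. ZEB2 then had 4 higher and 2 lower, SNAIL2 6 and 5, TWIST1 5 and 4, and ZEB1 10 higher. All 18193 genes entered, of which BRAF-on against BRAF-off had 2584 higher and 1161 lower. ZEB2 had 1717 and 1812 of them, SNAIL2 2240 and 2679, TWIST1 1628 and 2467, and ZEB1 2298 and 2029. At 3-fold, ZEB1 had 2 higher (Itgb2 and Itgb7), ZEB2 had 0 higher, and SNAIL2 had 0 higher and 0 lower. Of all genes, 112 of 11614, 25 of 11322, and 155 and 176 of 11416 were counted at 3-fold, in the same order. With the floor at the 60th percentile, SNAIL2 had 1 higher (Itga1) and 1 lower (Itgb8), against 537 and 625 of 9986 genes. The median of a gene's probe sets gave 1 higher for SNAIL2 (Itga9, against 543 of 11448 genes) and 0 for ZEB2 (167 of 11350 genes). Without probe sets that can match several transcripts SNAIL2 had 1 lower (Itgb8), against 610 of 9926 genes. With BRAF-off as the reference, ZEB2 had 0 higher, SNAIL2 1 lower (Itgb8), TWIST1 1 higher (Itga4) and ZEB1 2 lower (Itga1 and Itgb8). Against BRAF-off, 113 of 11088, 592 of 11149, 346 of 11132 and 598 of 11508 genes were counted, in the same order. SNAIL2 also had 3 higher against BRAF-off (Itga5, Itga9 and Itgb3, against 446 of 11149 genes), and Itga1 dropped out. ZEB1 had 5 higher (Itga2b, Itgb2, Itgb3, Itgb7 and Lama5, against 812 of 11508 genes), and Itga10 dropped out. Quantile normalization and centring moved no count by over 1.5 times. Of 751 ratios of single members, 21 moved by over 1.5-fold and none that was at least 2-fold apart changed sign. Among them were Itga1 with SNAIL2 (log2 0.72 with the median of probe sets) and, with the higher floor, Itga9 (at least 0.21) and Lamb3 (-0.14 or lower) with SNAIL2. The last 2 values are bounds, as 1 of the 2 signals lay under that floor. No paired analysis was possible because each group has 1 array and the labels give no replicate numbers. Depth of signal limits what could be measured: 8 members were under the floor on some arrays and 9 on all.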
